A study of Mus musculus with 2 samples.

Results

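The miRNAs described here are those whose hairpins lie inside the Hox clusters: miR-196b in Hoxa, miR-10a in Hoxb, miR-196a in Hoxb and Hoxc, and miR-10b in Hoxd. They were taken from the array annotation as every mature arm named miR-10a, miR-10b, miR-196a or miR-196b, which gave 9 arms of the 1247 mouse miRNAs on the array. The rule uses names only and no measured value. The 9 arms were read by 26 probes and 360 spots, with 40 spots for each arm.

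Total RNA came from c-Kit+ Sca1+ Lineage- cells sorted from adult bone marrow of C57/BL6 mice. This fraction holds hematopoietic stem cells and early progenitors. The KO array held RNA of cells with the genotype CreERT, Tif1bf/f, and the WT array held RNA of cells with the genotype CreERT, Tif1bw/w. Both carried the CreERT transgene, whose product is a Cre recombinase that acts in the nucleus once its ligand is given. Its promoter, the time of induction, the age of the mice and the number of mice behind each RNA are not given in the sources used here. Tif1b, also named Trim28 or KAP1, is a corepressor recruited by zinc finger proteins to retroelements and genes. There is no probe for it on the array, so its loss was not checked. With 1 array for each genotype, no test between genotypes was possible. Every SD below is taken over spots of 1 array and does not cover differences between animals.

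Hox genes encode homeodomain transcription factors that lie in 4 clusters and specify position along the body axis. Members of the Hoxa and Hoxb clusters, among them Hoxa9, Hoxa10 and Hoxb4, also act in self-renewal and expansion of blood progenitors. The embedded miRNAs tend to be transcribed with their neighbours and to target Hox messages in turn. miR-196 directs cleavage of mouse Hoxb8 mRNA, and miR-10b targets HOXD10 mRNA in human cells. miR-196b is known in the mouse from hematopoietic stem and progenitor cells and from leukemias driven by MLL fusions.

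The mature 5p arms fall into a pair of seed families, shown because a single base outside the seed separates the arm that was measured in each family from the arm that was not. The seed, bases 2 to 8, is in capitals in these RefSeq sequences (build GRCm38.p6).
miR-10a-5p: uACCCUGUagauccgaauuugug
miR-10b-5p: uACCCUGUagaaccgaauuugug
miR-196b-5p: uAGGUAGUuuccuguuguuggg
miR-196a-5p: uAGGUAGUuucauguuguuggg
Counted from 1 at the 5′ end, miR-10a-5p and miR-10b-5p differ only by U12A, and miR-196a-5p and miR-196b-5p only by A12C. In RefSeq's mouse set of 1679 mature miRNA names, each seed was held by no miRNA other than these pairs. All 9 arms on the array matched a RefSeq mature sequence by name.

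The hairpins that carry the measured arms, with the 5p arm in capitals, are given with their place in the genome. Mir196b lies at chr6:52230081-52230165 on the minus strand, between Hoxa10 and Hoxa9. Mir10a lies at chr11:96317165-96317274 on the plus strand, within the span of Hoxb3 and between Hoxb5 and Hoxb4.
Mir196b: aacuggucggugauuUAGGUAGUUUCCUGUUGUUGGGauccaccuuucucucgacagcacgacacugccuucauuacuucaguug
Mir10a: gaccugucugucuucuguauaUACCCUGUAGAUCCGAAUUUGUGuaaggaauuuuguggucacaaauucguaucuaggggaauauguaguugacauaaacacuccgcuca
The other hairpins were Mir196a-1 at chr11:96265164-96265265, between Hoxb13 and Hoxb9, and Mir196a-2 at chr15:102973350-102973434, between Hoxc10 and Hoxc9. Mir10b lies at chr2:74726070-74726137, within the overlapping spans of Hoxd3 and Hoxd4. These 3 are on the plus strand. Exons and introns of the host genes were not analysed here. Mature miR-196a-5p is identical from both of its hairpins, so its probes cannot tell the Hoxb copy from the Hoxc copy.

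**Figure D1:**
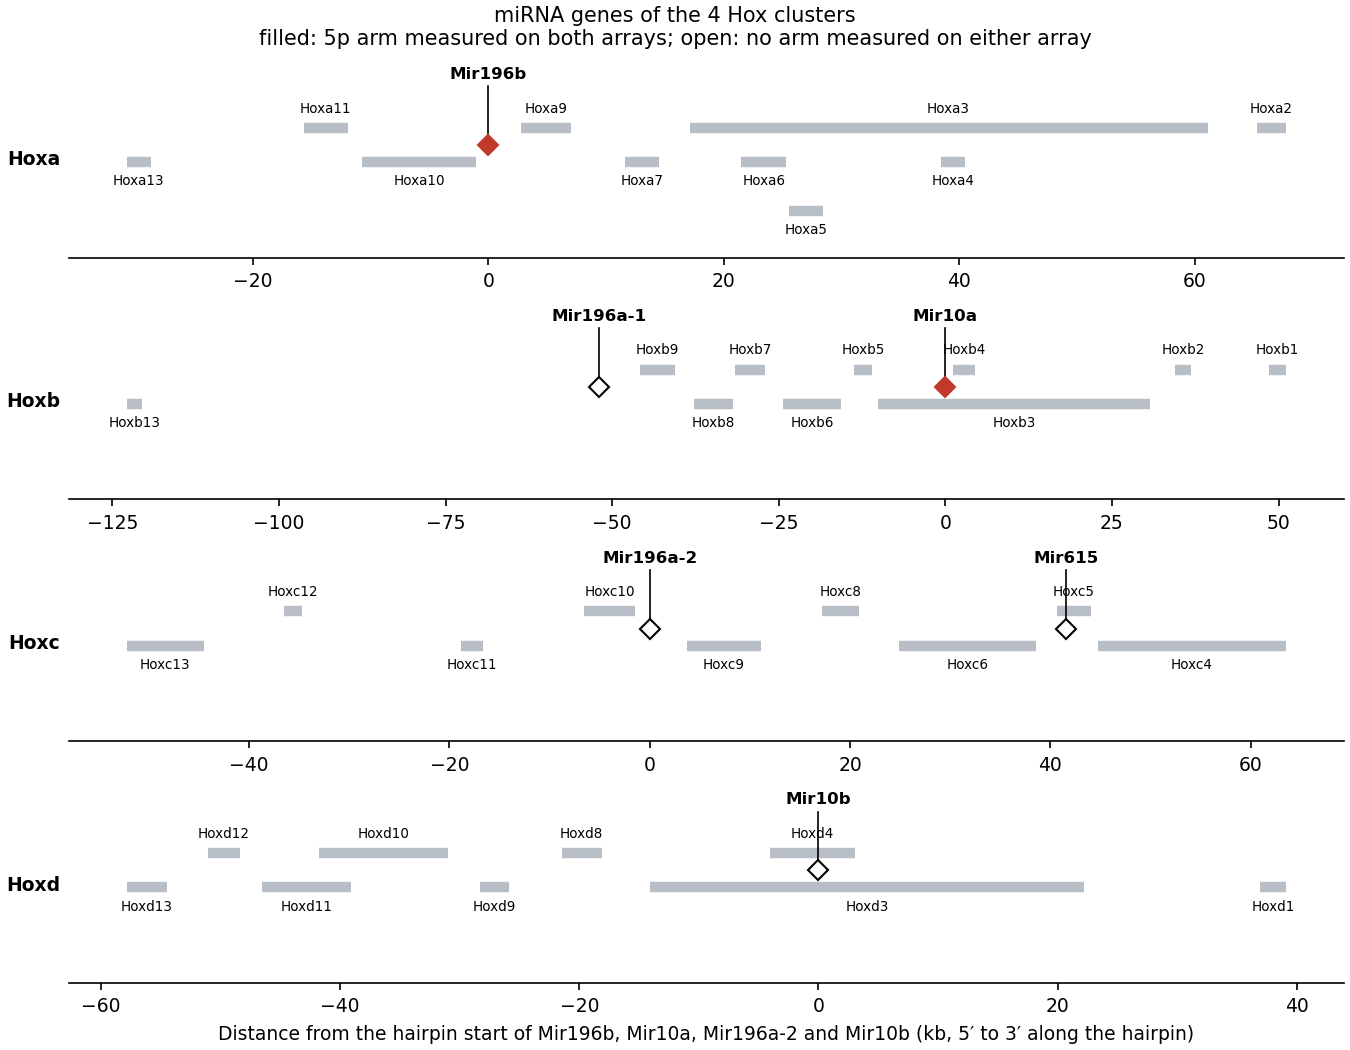
Positions of the miRNA hairpins (diamonds) and Hox genes (grey bars, RefSeq gene spans, build GRCm38.p6) in the 4 clusters, as distance in kb from the start of Mir196b, Mir10a, Mir196a-2 or Mir10b; not every gene of a cluster is drawn. Filled diamonds mark Mir196b and Mir10a, whose 5p arms were measured on both arrays, and open diamonds mark hairpins with no arm measured on either array.

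Of the 4 Hox clusters, Hoxa and Hoxb had a miRNA signal on both arrays, and Hoxc and Hoxd had none that could be told from background. Spots that the software marked as outliers were left out. A probe was taken as measured if the software marked over 50% of its remaining spots as well above background, and a miRNA if any of its probes was. By this rule mmu-miR-196b-5p of Hoxa and mmu-miR-10a-5p of Hoxb were measured on the KO array and on the WT array, and the other 7 arms on neither. Over the whole array 5.77% of miRNAs were measured on both arrays, with 6.26% measured on KO and 8.02% on WT. Of the 4 5p arms 2 were measured on both arrays, and of the 5 3p arms 0 were. For all 473 miRNAs named as 5p on the array the share was 6.98%, and for the 484 named as 3p it was 4.96%.

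The probes are complementary to the 3′ part of the miRNA and so include its base 12. They are shown for the 5p arms, 5′ to 3′, with the base that faces base 12 of the miRNA in capitals.
miR-10a-5p, 20 bases: cacaaattcggAtctacagg
miR-10a-5p, 21 bases: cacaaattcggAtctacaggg
miR-10b-5p, 20 bases: cacaaattcggTtctacagg
miR-10b-5p, 21 bases: cacaaattcggTtctacaggg
miR-196b-5p, 19 bases: cccaacaacaGgaaactac
miR-196b-5p, 20 bases: cccaacaacaGgaaactacc
miR-196a-5p, 19 bases: cccaacaacaTgaaactac
miR-196a-5p, 20 bases: cccaacaacaTgaaactacc
The remaining miR-196a-5p probes were 21 and 22 bases long. Each of the 26 probes was an exact complement of 1 mature miRNA in RefSeq, its own. The 10 probes of the 5p arms were each 1 mismatch away from 1 other mature miRNA, the sister arm of the same seed family, and the probes of the 3p arms were 1 mismatch away from none.

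mmu-miR-10a-5p was measured at all of its spots. On the KO array its 20-base probe had a mean processed signal of 51.2 ± 6.71 (SD over 17 spots, lowest 35.6, median 50.7, highest 61.3). On the WT array the same probe had 74.6 ± 20.8 (SD over 19 spots, lowest 29.9, median 78.2, highest 109). The processed signal is a brightness on a linear scale, and a spot needed about 21.7 on KO or 19.6 on WT to be marked well above background, so every spot of this probe that was not an outlier exceeded that level. The 21-base probe had 88.0 ± 14.4 on KO (19 spots, lowest 63.7, median 91.0, highest 110) and 143.7 ± 37.6 on WT (20 spots, lowest 60.4, median 161, highest 190). Both probes were dimmer on the KO array, at 0.686 and 0.613 of their WT signal, and the spots of the arrays overlapped. Before scaling, the median of all miRNAs measured on both arrays was -0.89 on the log2 scale. The positive control probes used for scaling differed less than this median. All were dimmer on KO too, at 0.64 to 0.995 of their WT signal, a range that holds the 0.686 of the 20-base probe. Negative controls averaged 6.99 on KO and 6.62 on WT, but they read background and cannot show whether an array was dimmer. After the main scaling described below, miR-10a-5p was higher on KO by 0.57. With scaling to positive controls it was at -0.28. In bulk RNA of this kind, fewer cells of a type and less RNA per cell cannot be told apart.

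mmu-miR-196b-5p had nearly the same signal on both arrays before scaling. Its 20-base probe had 142 ± 25.8 on KO (17 spots, lowest 76.4, median 142.9, highest 191) and 150 ± 30.1 on WT (18 spots, lowest 82.7, median 158, highest 202). All of these spots were well above background. The 19-base probe was dimmer and patchy, with 34.8 ± 22.5 on KO (19 spots, lowest 6.62, median 28.2, highest 71.7) and 34.4 ± 20.98 on WT (20 spots, lowest 7.002, median 27.9, highest 71.9). Of its spots 11 of 19 on KO and 13 of 20 on WT were well above background, so this probe passed the rule by a small margin. KO signal was 0.947 of WT at the 20-base probe and 1.01 of WT at the 19-base probe, and the ranges of spots overlapped almost completely.

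**Figure D2:**
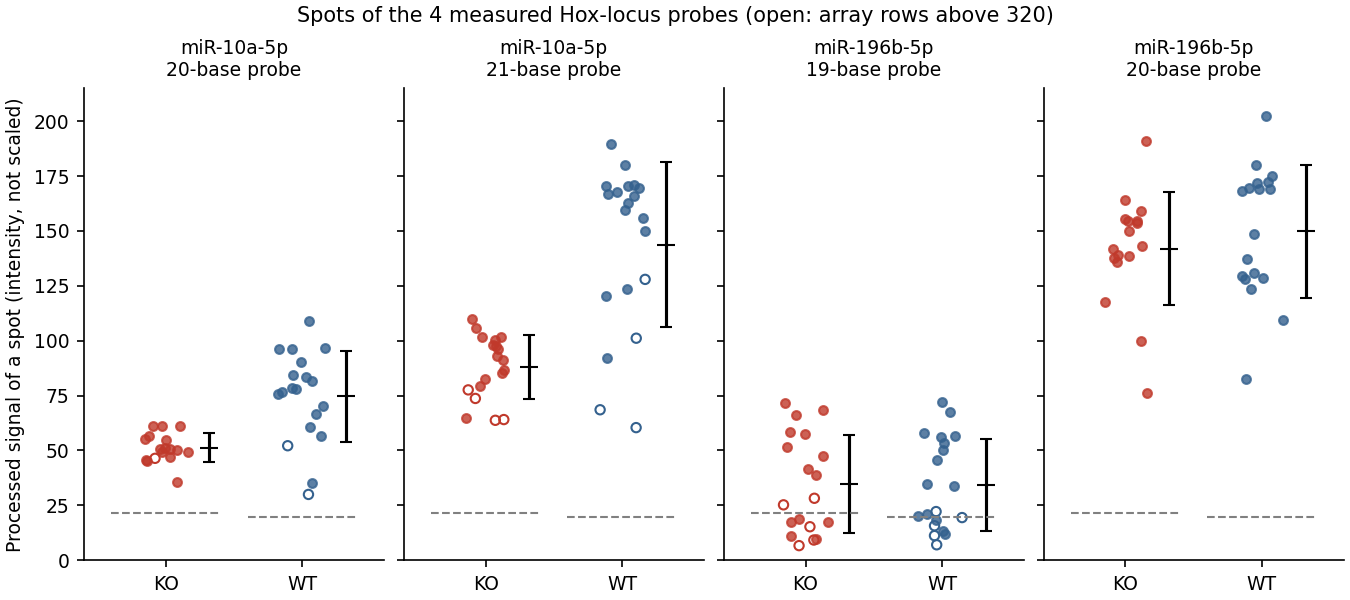
Processed signal of each spot (intensity, not scaled, outlier spots left out) for the 4 measured probes, with KO left of WT; black bars give the mean ± SD over spots, dashed lines the lowest signal marked well above background, and open circles spots in array rows above 320. Both miR-10a-5p probes sit lower on KO (means 51.2 and 88.0) than on WT (74.6 and 143.7), while the miR-196b-5p means lie at 34.8 and 142 on KO and 34.4 and 150 on WT.

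Part of the spread over spots followed the place on the array. In rows above 320 of the 384 rows, the 21-base probe of miR-10a-5p averaged 69.8 on KO (4 spots) and 89.5 on WT (4 spots), against 92.9 and 157 in the other rows. The 19-base probe of miR-196b-5p averaged 16.9 on KO and 15.1 on WT there (5 spots each), against 41.1 and 40.8 elsewhere. The 20-base probe of miR-196b-5p had no spot in those rows except outliers. Without rows above 320 the scaled differences given below were 1.23 for miR-196b-5p and 0.58 for miR-10a-5p, so leaving these rows out moved both by less than their spread over spots.

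The 7 arms that were not measured had no single spot well above background, among 262 spots on KO and 271 on WT. Their 22 probes averaged from -7.61 to 7.51 on KO and from -6.94 to 8.64 on WT, where values can lie below 0 because the software had subtracted a fitted trend. The 7 negative control probes averaged 5.05 to 9.89 on KO and 5.07 to 8.86 on WT. No probe of the 7 arms exceeded the brightest of these controls on either array. For these arms the data therefore give only an upper limit, and no KO over WT value was computed.

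The sister arms of the measured miRNAs were among them. mmu-miR-10b-5p, encoded in Hoxd, had -0.12 ± 2.33 on KO and 1.27 ± 4.23 on WT at its 20-base probe (SD over 17 and 19 spots). At its 21-base probe it had 5.44 ± 3.52 on KO and 6.82 ± 4.74 on WT (18 and 19 spots). Its brightest spot was 12.2 on KO and 16.1 on WT, so neither array held a miR-10b-5p spot at the level required. mmu-miR-196a-5p, encoded in Hoxb and Hoxc, had probe means of 3.90 to 7.51 on KO and 5.02 to 8.64 on WT, with brightest spots of 12.5 on KO and 15.96 on WT. Probes that differ from the miR-10a-5p and miR-196b-5p probes at the base facing position 12 thus stayed within the range of the negative controls or below it on the same arrays.

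The 3p arms, the strands of the hairpins that are usually degraded, were all at or near background. miR-196b-3p, from the same hairpin as miR-196b-5p, had probe means of -4.39 and -3.67 on KO and -4.00 and -4.06 on WT. miR-10a-3p, from the same hairpin as miR-10a-5p, ranged over its 4 probes from -6.75 to 1.30 on KO and from -4.38 to -0.58 on WT. miR-10b-3p, miR-196a-1-3p and miR-196a-2-3p had highest spots of 4.21, 0.37 and 1.92 on KO and 5.66, 7.64 and 4.87 on WT. In both measured hairpins only the 5p arm passed the rule for a measured miRNA. Probe lengths differed between the arms, with 13 bases the shortest, so signals of different arms were not set against each other.

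**Figure D3:**
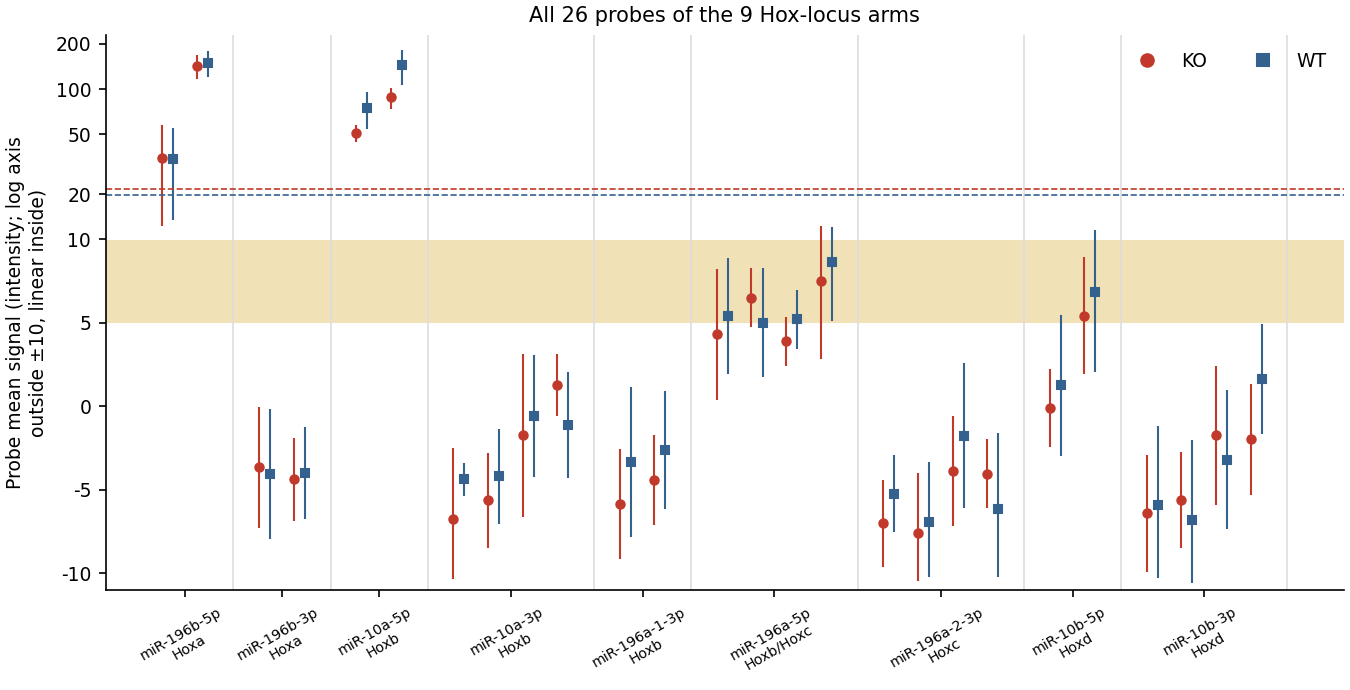
Mean processed signal of all 26 probes (bars, SD over spots) on the KO array (circles) and the WT array (squares), grouped by mature arm with its Hox cluster; the axis is logarithmic outside ±10 and linear inside. The band spans the means of the negative control probes over both arrays (5.05 to 9.89), dashed lines mark the lowest signal marked well above background, and the 4 probes of miR-196b-5p and miR-10a-5p are the ones above those lines.

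To compare the arrays, each was scaled to the 75th percentile of the 113 probes that passed on KO and on WT alike, which was 213 on KO and 487 on WT. On that scale the KO minus WT difference of miR-196b-5p was 1.16 on the log2 scale, or 2.24-fold, with a spot SD of 0.80 over 36 spot positions. That of miR-10a-5p was 0.57, or 1.48-fold, with a spot SD of 0.40 over 36 positions. Its probes gave 0.65 and 0.49, and those of miR-196b-5p gave 1.21 and 1.11, so probes of 1 miRNA lay within 0.16 of each other. One of the 2 measured arms passed 2-fold, miR-196b-5p. Among the 72 miRNAs with a difference, 13.9% were higher on KO by 2-fold or more, and 13.9% were lower. The direction rests on the scaling. Without it, miR-196b-5p was at -0.032 and miR-10a-5p at -0.63, against a median of -0.89 for all 72, and neither passed 2-fold. Of the 72, 1.39% were then higher by 2-fold or more and 44.4% lower. In 34 of 36 spot positions miR-10a-5p was dimmer on KO before scaling, and miR-196b-5p was dimmer in 21 of 36. After scaling miR-10a-5p was brighter on KO in 35 of 36 positions and miR-196b-5p in 33 of 36.

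The position of both miRNAs relative to the others is not touched by a common factor for an array. With the scaling the median of the 72 miRNAs was 0.30. Relative to it miR-196b-5p was at 0.86, or 1.81-fold, and miR-10a-5p at 0.26. By this measure neither passed 2-fold, although miR-196b-5p did by total gene signal and by the value table, at 1.03. As reported, 8.33% of the 72 were higher by 2-fold or more and 13.9% lower. In the order of differences from highest to lowest, miR-196b-5p was at place 8 of 72 and miR-10a-5p at place 25. With no filter on dim probes the places were 202 and 293 of 477, and miR-10a-5p then lay below the median, at -0.33 relative to it. The difference of miR-196b-5p exceeded that of miR-10a-5p by 0.59, or 1.51-fold. A common factor for an array cannot change this value. It stayed between 0.33 (normexp background correction) and 0.75 (outlier spots kept) under 15 other ways of processing. Those that only exchange the common factor left it at 0.59 by construction. So did the absent filter on dim probes, which kept the same probes of both miRNAs and the same scaling factor. Total gene signal and the value table held the same values to within 0.1%. A spot SD describes single spots and is not the precision of a mean. The spot SDs of both miRNAs, combined as the root of their summed squares, came to 0.90. The gap of 0.59 is also no larger than the spot SD of miR-196b-5p alone, which its 19-base probe sets. That probe had a spot SD of 1.08, and the 20-base probe 0.24. The 20-base probe gave 1.11 by itself, above both probes of miR-10a-5p. No replicate array was analysed here to place this gap against the spread between animals.

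**Figure D4:**
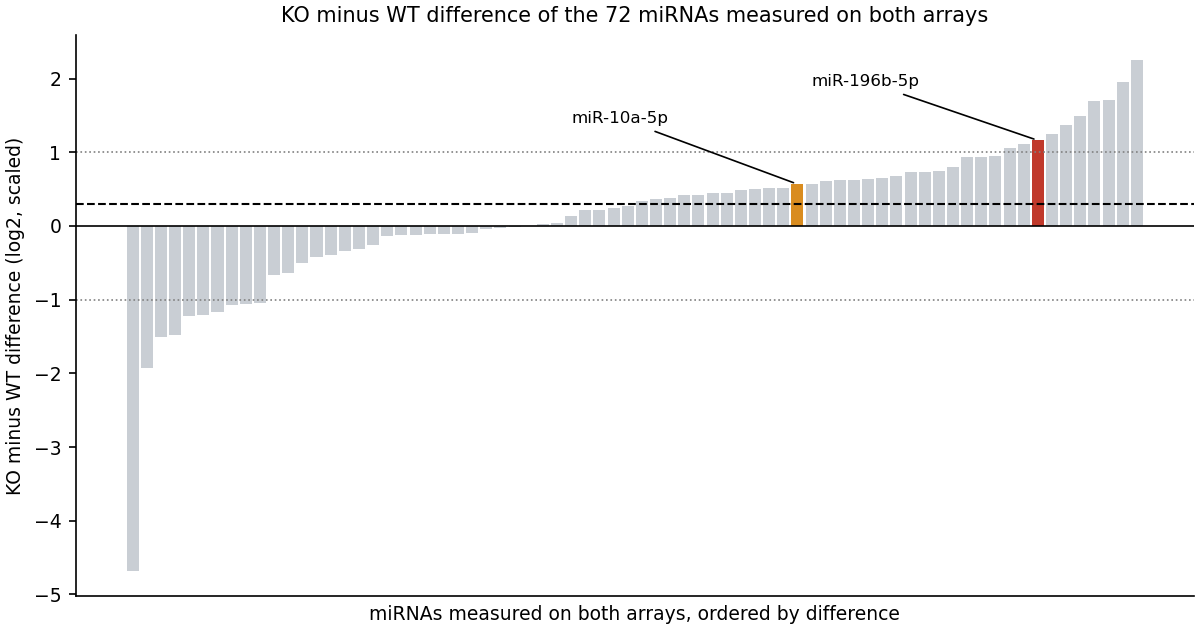
KO minus WT difference (log2, scaled) of the 72 miRNAs measured on both arrays, ordered from lowest to highest, with the median of 0.30 as a dashed line and 2-fold differences as dotted lines. miR-196b-5p (1.16) is place 8 from the top and miR-10a-5p (0.57) place 25, and both lie above the median of these 72; with no filter on dim probes miR-10a-5p lies below the median.

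With 2 arrays, likeness between miRNAs can only be measured as closeness of this difference. The 3 miRNAs closest to miR-196b-5p were let-7c-5p at 1.11, miR-5126 at 1.25 and let-7b-5p at 1.06. Those closest to miR-10a-5p were miR-466i-5p at 0.57, miR-3960 at 0.61 and miR-92a-3p at 0.51. All 6 lie within 0.10 of their member, far less than the spot SDs of the members, so the order among them carries little information.

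The seed of miR-196, AGGUAGU, also occurs in let-7, shifted by a base. It stands at bases 3 to 9 in 8 of the 9 let-7 and miR-98 5p sequences, all but let-7e-5p. let-7 promotes differentiation and restrains proliferation. Of these 9 miRNAs 8 were measured on both arrays. Their differences ran from 0.22 to 1.11, with a median of 0.56, against 0.30 for all miRNAs measured. This list was chosen with earlier results of these data known. Whether let-7 probes also bind other let-7 members was not checked. Of the 8, 2 were higher on KO by 2-fold or more and 6 were within 2-fold, where the share of all 72 that were higher was 13.9%. Without scaling the let-7 median was -0.64, against -0.89 for all 72. Of the 8, 0 were then higher by 2-fold or more, against 1.39% of the 72, and 0 were lower, against 44.4%. let-7e-5p, the member without the shared bases, was measured on neither array.

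miR-99a, miR-99b and miR-100 are relatives of miR-10 by sequence but have another seed, as their 5p arms show.
miR-99a-5p: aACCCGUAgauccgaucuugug
miR-99b-5p: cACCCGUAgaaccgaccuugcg
miR-100-5p: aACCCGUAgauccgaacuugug
Of their 6 arms, 1 was measured on WT only and 5 on neither array. The 1 was miR-99a-5p, a miRNA enriched in stem cells, whose brighter probe had 12.9 ± 5.24 on KO (0 of 20 spots well above background) and 31.7 ± 6.31 on WT (17 of 17 spots). Its scaled lower bound did not reach 1, so no fold is given. Both arms of miR-615, the other miRNA of the Hoxc cluster, were measured on neither array, so the Hoxc cluster gave no measured miRNA at all.

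The miRNA spots of the KO array were dimmer, with 2510 of 49880 well above background against 3308 on WT. Their mean processed signal was 9.14 on KO against 21.9 on WT. The array also holds miRNA markers of other blood and stromal cells, and the Lineage- gate should remove mature blood cells. Of 12 marker miRNAs on the array, miR-223-3p and miR-126-3p were measured on both arrays, and 10 on neither. miR-223-3p was taken as the marker of granulocytes and monocytes, and miR-126-3p marks endothelium and is also known from stem cells. Which of the sorted cells carried the miR-223-3p signal was not tested. The 10 were all 3 erythroid markers, the lymphoid marker miR-150-5p and the other 6 of the 7 stromal and endothelial markers. miR-223-3p was at -4.68 on the log2 scale and miR-126-3p at 0.030. Before scaling, the miR-223-3p probe measured on both arrays had 63.6 on KO and 3726 on WT, and that of miR-126-3p had 25.1 on KO and 56.2 on WT. The sum over these 2 probes was 88.7 on KO and 3782 on WT. The part of these markers and of the lower miRNA signal of the KO array in the differences of miR-196b-5p and miR-10a-5p was not tested.

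**Figure D5:**
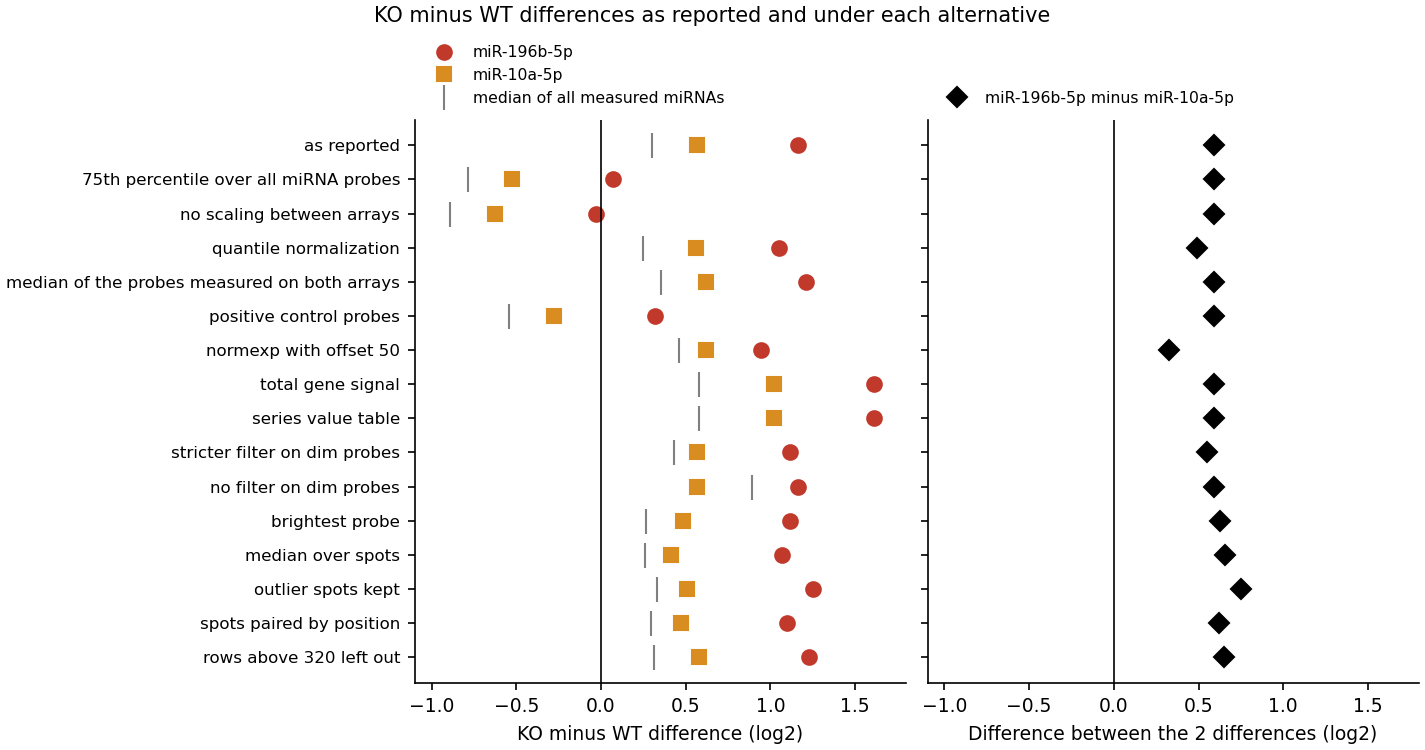
Left, KO minus WT difference (log2) of miR-196b-5p, miR-10a-5p and the median miRNA as reported and under 15 other ways of processing; right, the difference of miR-196b-5p minus that of miR-10a-5p. Without scaling miR-196b-5p lies at -0.032 and miR-10a-5p at -0.63. The gap between them is positive under every setting, from 0.33 to 0.75. Settings that only exchange a common factor for an array, and the absent filter on dim probes, cannot change it.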

How the data were processed

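The deposited array files hold spot intensity on a linear scale made with version 10.7.3 of Agilent Feature Extraction (per the submitters' processing notes) from 1-colour arrays labelled with Cyanine 3 from 100 ng of total RNA, per the labels' protocols. Per the file headers, a fitted spatial trend was subtracted, further background correction was off, and both arrays came from 1 slide and 1 scan. The deposited value table is linear and uncentred: all 1268 rows with a name matched, in both columns, the software's total gene signal within 0.1%, with column medians of 0.1.

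Here each probe was summarised as the mean processed signal over spots not marked as outliers, scaled to the 75th percentile of the probes that passed on both, and log2-transformed. A miRNA's difference is KO minus WT, as the median of its probes that passed on KO and on WT. The spot SD is taken over log2 ratios of spots at the same position and combined over probes. A lower bound, for a probe measured on 1 array, is its signal over the higher of the other array's lowest measured probe (21.1 on KO, 17.7 on WT) and its own dim signal, after scaling. The precision is limited by the number of arrays, 1 for each genotype, so no test was made. Named miRNAs are all arms of the 4 miRNAs, the 3 closest miRNAs to each measured member, and measured members of the related lists. Members and lists were chosen with earlier results of these data known. Alternatives changed the scaling, background correction, source of values, filter on dim probes, summaries and use of spots. Stricter and absent filters kept the scaling factor. The procedure was also run on simulated arrays, in which the KO array was dimmed by a single common factor. Scaling was thus right by construction there, so that run cannot show whether it is right for these arrays. Python 3.11.15, numpy 2.4.6, pandas 2.3.3, R 4.3.3 and limma 3.58.1 were used. Sequences and names are RefSeq's (GRCm38.p6). The file headers name the build mm9 and give no probe coordinates that were used.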

Additional observations from a re-analysis of the deposited data

How the results depend on the processing

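The counts of Hox-locus miRNAs measured, 2 on KO and 2 on WT, were the same under all 5 alternatives tried, including the stricter filter (over 90% of spots) and the looser one (at least 25%). No Hox-locus miRNA was measured on 1 array only, so no lower bound was computed. No paired analysis was possible because there is a single array for KO and a single one for WT. The scaling changed the direction, and the cause was not tested. With scaling to the 75th percentile of all probes, without scaling, and with scaling to positive controls, in that order, miR-196b-5p was at 0.070, -0.032 and 0.32 (1.16 as reported), miR-10a-5p at -0.52, -0.63 and -0.28 (0.57), and the median miRNA at -0.79, -0.89 and -0.54 (0.30). In the same order 1, 1 and 2 miRNAs of the whole array were at least 2-fold higher (10) and 31, 32 and 18 lower (10). By total gene signal and by the value table, miR-10a-5p was at 1.02, with 29 miRNAs higher and 5 lower. With normexp 1 was lower, and miR-196b-5p was under 2-fold at 0.95. With no filter on dim probes, which admits 477 miRNAs, 227 were higher and 53 lower, and miR-10a-5p relative to the median miRNA was at -0.33 (0.26). Relative to the median miRNA, miR-196b-5p stayed between 0.27 and 1.03 under all 15 alternatives. Those that only exchange a common factor for an array cannot change this value. It passed 2-fold under 2 alternatives, total gene signal and the value table, which hold the same values. Places by total gene signal were 11 for miR-196b-5p and 29 for miR-10a-5p of 86. Of the 15 alternatives 14 were planned; leaving out rows above 320 was chosen after seeing the data.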
